A study of Mus musculus with 2 samples.

Results

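The genes of oxidative phosphorylation (OXPHOS) were taken from both genomes of the mouse muscle nucleus preparation. Members were all genes whose symbol began with Nduf, Uqcr, Cox4i, Cox5, Cox6, Cox7, Cox8 or Atp5, the genes Sdha, Sdhb, Sdhc, Sdhd and Cyc1, and all genes with the prefix mt-. The symbols matched 106 of 27998 genes, 93 encoded in the nucleus and 13 in mitochondrial DNA. The 101 members with at least 10 unique molecular identifiers (UMIs, each marking 1 captured RNA molecule) over both libraries were kept, 88 nuclear and 13 mitochondrial. The 5 left out were Ndufa4l2 and Cox4i2 with 2 UMIs each, Cox7b2 with 7, and Cox6b2 and Cox8c with 0. All levels below are CPM, the UMIs of a gene or gene set divided by all UMIs of the same nuclei and multiplied by 1000000.

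Single-nucleus RNA-Seq was run on muscle from the calf (gastrocnemius-plantaris, GP) of mice on a B6C3F1 background at 5 months of age, 3 months after tamoxifen. The cKO mice carried HSACreERT2;Net39 fl/fl, in which tamoxifen activates a Cre recombinase driven by a skeletal actin promoter in muscle fibers, so that nuclei of other cell types keep the gene. Ctrl mice were Net39 fl/fl and Cre-, and thus carried the same floxed gene, which encodes a protein of the muscle nuclear envelope. Each genotype gave 1 library, made from 3 muscles pooled before the nuclei were isolated, so no test between genotypes was possible and the intervals below are 95% intervals for counting error only.

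In the inner mitochondrial membrane, complexes I and II pass electrons from NADH and succinate to ubiquinone, complex III passes them on to cytochrome c and complex IV to oxygen. The proton gradient built by complexes I, III and IV drives complex V, the ATP synthase. Complex II is encoded by nuclear genes alone, whereas the other complexes join nuclear subunits with a few made inside the organelle, and slow and oxidative fast fibers are known to hold more mitochondria than glycolytic fast fibers. Nuclear members are transcribed in the myonucleus, whereas mt- genes are transcribed inside mitochondria, outside the nucleus.

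Fiber type was read per nucleus from the adult myosin heavy chain genes Myh7 (type I), Myh2 (type IIa), Myh1 (type IIx) and Myh4 (type IIb). A nucleus with 3 or more myosin UMIs joined the class of the gene holding 60% of them or more. The 2928 Ctrl and 3240 cKO myonuclei included 19 and 275 Myh7 nuclei, 165 and 322 Myh2 nuclei, 300 and 380 Myh1 nuclei, and 1875 and 1396 Myh4 nuclei, in that order. Mixed nuclei numbered 128 and 205, and 441 and 662 had too few myosin UMIs to be placed. The 598 Ctrl and 355 cKO nuclei of clusters named for cells outside the fiber (fibro-adipogenic progenitor-like, endothelial-like with smooth muscle markers, immune-like, satellite-like and adipocyte-like) were kept apart as non-fiber nuclei. The Ctrl and cKO matrices held 10410316 and 8446070 UMIs, with a median of 2040.5 and 1611 UMIs in the nuclei used, and 5 barcodes occurred in both. Plpp7, the gene of Net39, had 401 UMIs (52.2 CPM) in Ctrl and 281 UMIs (42.2 CPM) in cKO myonuclei, a log2 ratio of -0.31 (-0.53 to -0.08). It was not lower in Myh4 nuclei, with 294 of 5260024 UMIs in Ctrl and 183 of 2877181 in cKO. Its log2 ratio over Myh4 nuclei was -0.18 (Myh7, 2 UMIs), -0.80 (Myh2) and -0.42 (Myh1) in Ctrl. In cKO these ratios were -2.28 (8 UMIs), -1.26 and -1.17. A 3′-end assay need not read the deleted first exon. Malat1, a long noncoding RNA retained in the nucleus, made up 26.7% of the UMIs of Ctrl and 31.4% of those of cKO myonuclei, which lowers the CPM of every other gene in cKO. With Malat1 and mt- genes left out of the total, the log2 ratio of the nuclear members over all myonuclei went from 0.10 to 0.20, and every other cKO over Ctrl ratio of all myonuclei moves up by the same amount, so that ratios just under 0 turn sign. The sums by fiber class are given both ways below, whereas complexes, single genes, non-fiber nuclei, gene spans and the split of the mt- sum by class shares are given for the total of all UMIs alone.

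Several complex IV subunits have a muscle isoform and an isoform of other tissues, and these pairs were followed through the data. Their promoters are shown because the isoforms of a pair differ in CpG content. The windows hold 300 bases around the RefSeq gene start on GRCm38.p6. Capitals mark matches on either strand to the E-box CANNTG, the ETS motif CCGGAAG bound by GABPA, the NRF1 motif, whose 10 letters are the first run of capitals in Cox6a1, and the ERR half-site AAGGTCA. Cox6a2 had no entry.
Cox8b (chr7:140900397-140900696, minus strand): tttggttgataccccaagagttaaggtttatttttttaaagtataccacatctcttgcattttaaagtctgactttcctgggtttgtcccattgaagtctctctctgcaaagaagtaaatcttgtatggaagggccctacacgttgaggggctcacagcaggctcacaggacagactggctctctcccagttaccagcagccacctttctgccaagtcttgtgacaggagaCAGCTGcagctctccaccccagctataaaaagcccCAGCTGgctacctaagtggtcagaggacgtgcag
Cox8a (chr19:7217567-7217866, minus strand): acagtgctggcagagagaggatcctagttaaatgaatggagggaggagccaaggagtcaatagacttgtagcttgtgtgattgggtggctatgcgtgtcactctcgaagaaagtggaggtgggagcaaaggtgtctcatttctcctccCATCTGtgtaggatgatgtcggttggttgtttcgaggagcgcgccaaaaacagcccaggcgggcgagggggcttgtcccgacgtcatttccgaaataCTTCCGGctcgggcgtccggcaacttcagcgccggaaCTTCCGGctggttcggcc
Cox7a1 (chr7:30183921-30184220, plus strand): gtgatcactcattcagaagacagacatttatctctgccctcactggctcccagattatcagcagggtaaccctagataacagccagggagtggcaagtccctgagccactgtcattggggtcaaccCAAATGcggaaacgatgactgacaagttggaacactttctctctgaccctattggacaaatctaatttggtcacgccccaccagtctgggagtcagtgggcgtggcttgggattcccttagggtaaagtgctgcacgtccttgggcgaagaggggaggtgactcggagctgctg
Cox7a2 (chr9:79759804-79760103, minus strand): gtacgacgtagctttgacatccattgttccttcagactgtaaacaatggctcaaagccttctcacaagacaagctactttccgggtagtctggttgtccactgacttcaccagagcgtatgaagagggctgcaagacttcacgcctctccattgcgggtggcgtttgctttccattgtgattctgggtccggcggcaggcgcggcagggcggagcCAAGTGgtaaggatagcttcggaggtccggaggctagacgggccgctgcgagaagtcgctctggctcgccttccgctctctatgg
Cox6a1 (chr5:115348909-115349208, minus strand): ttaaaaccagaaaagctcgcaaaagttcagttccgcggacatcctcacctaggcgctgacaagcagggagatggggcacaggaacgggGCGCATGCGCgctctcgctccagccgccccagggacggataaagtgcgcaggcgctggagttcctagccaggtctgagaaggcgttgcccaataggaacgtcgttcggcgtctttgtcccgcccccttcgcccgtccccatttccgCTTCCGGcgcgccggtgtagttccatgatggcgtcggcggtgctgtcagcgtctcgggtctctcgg

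The muscle isoforms Cox8b and Cox7a1 had few CpG dinucleotides, with an observed to expected ratio of 0.115 and 0.333, against 0.842 and 0.833 for the partners Cox8a and Cox7a2 and 1.08 for Cox6a1. Cox8b held 2 E-boxes and no ETS or NRF1 match, whereas Cox8a held 2 ETS matches and Cox6a1 an NRF1 and an ETS match. Of the 88 nuclear members, 71 had a promoter entry. The NRF1 motif stood in 7 of them (9.86%) and in 222 of 9602 promoters of genes seen in these myonuclei (2.31%). The ERR half-site stood in 8 (11.3%) against 3.93%, and the ETS motif in 17 (23.9%) against 19.3%. The E-box stood in 71.8% and 68.3%. A match describes the letters and does not show that a factor bound there.

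The nuclear members were higher in oxidative than in glycolytic fiber classes in both libraries. In Ctrl, their summed level was 2351 CPM (2309 to 2392) in Myh4 nuclei, 3324 CPM (3198 to 3454) in Myh1 nuclei, 4624 CPM (4417 to 4839) in Myh2 nuclei and 3608 CPM (3046 to 4243) in the 19 Myh7 nuclei, which held only 146 UMIs of these genes. In cKO, it was 2493 CPM (2435 to 2551), 3001 CPM (2888 to 3117), 3806 CPM (3660 to 3955) and 3163 CPM (3024 to 3308) in the same order. Myh2 nuclei were highest and Myh4 nuclei lowest in both libraries, and the intervals of Myh7 nuclei overlapped those of Myh1 nuclei in both.

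**Figure D1:**
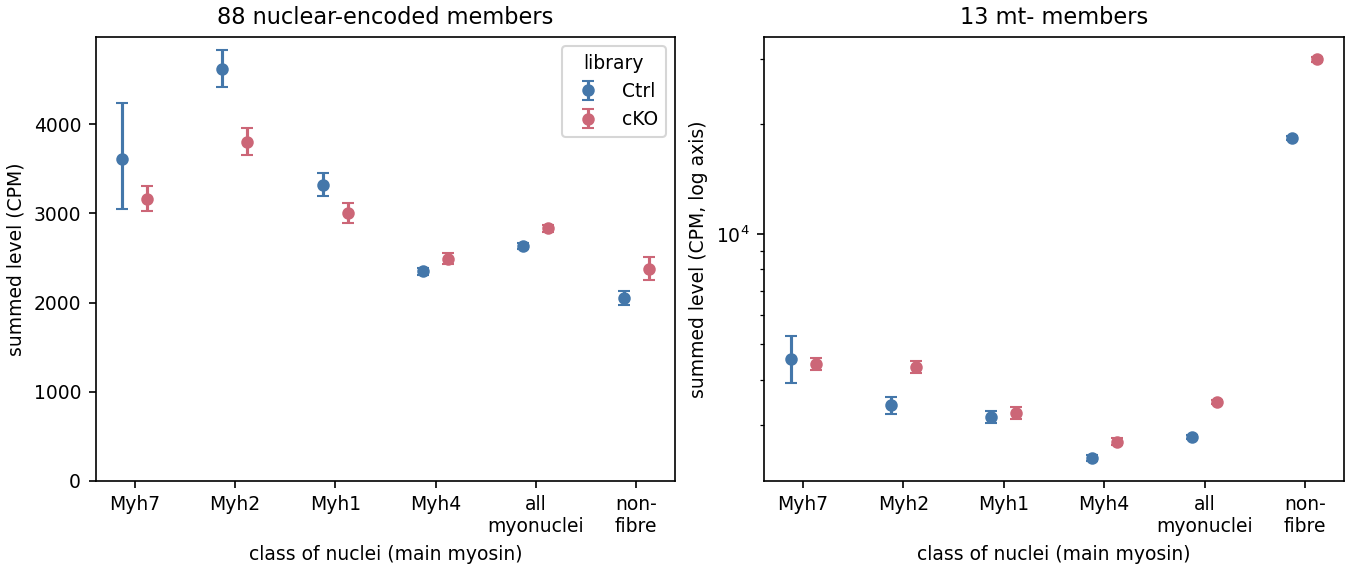
Summed level of the 88 nuclear members (left, linear axis) and the 13 mt- members (right, log axis) in CPM, by class of nuclei, for the Ctrl (blue) and cKO (red) library; bars are 95% Poisson intervals. Nuclear members were highest in Myh2 nuclei (4624 CPM in Ctrl and 3806 CPM in cKO), whereas mt- members were highest in non-fiber nuclei (18288 and 30004 CPM).

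The distance between fiber classes was smaller in cKO. The log2 ratio of Myh2 over Myh4 nuclei was 0.98 (0.91 to 1.05) in Ctrl and 0.61 (0.54 to 0.68) in cKO, and that of Myh1 over Myh4 nuclei was 0.50 (0.44 to 0.56) and 0.27 (0.20 to 0.33). With Malat1 and mt- genes left out of the total, the cKO values were 0.72 and 0.36 against 0.95 and 0.52 in Ctrl. For Myh7 over Myh4 nuclei the ratios were 0.62 (0.37 to 0.85) and 0.34 (0.27 to 0.42), with overlapping intervals, or 0.55 and 0.45 with those genes left out. Ribosomal protein genes, taken as a comparison set, lay close to 0 in the Myh2 over Myh4 contrast, at 0.15 (0.04 to 0.25) in Ctrl and -0.03 (-0.13 to 0.06) in cKO. For Myh1 over Myh4 nuclei they had 0.06 (-0.02 to 0.14) and -0.0070 (-0.09 to 0.07). For Myh7 over Myh4 nuclei, however, they stood at 0.22 (-0.11 to 0.53) in Ctrl and 0.23 (0.15 to 0.32) in cKO, so that the cKO interval overlapped that of the nuclear members.

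Members were assigned to complexes by symbol alone: Nduf without Ndufaf to I, Sdh to II, Uqcr and Cyc1 to III, Cox to IV and Atp5 to V. The sums and counts of a complex below follow the symbol and can hold genes that are not its subunits. Complex IV had the largest value among the complexes for Myh2 and for Myh7 over Myh4 nuclei, but only in Myh7 nuclei of cKO was its interval apart from those of all the others. In Myh1 over Myh4 nuclei of cKO it had 0.26 (0.06 to 0.45), under complexes I (0.30), II (0.44) and III (0.39). Its 14 nuclear members, which include the isoform pairs above, summed to 249 CPM in Myh4 and 664 CPM in Myh2 nuclei of Ctrl, and to 281 and 525 CPM in cKO. The log2 ratio of Myh2 over Myh4 nuclei was 1.42 (1.22 to 1.61) in Ctrl and 0.90 (0.72 to 1.08) in cKO, and that of Myh7 over Myh4 nuclei in cKO was also 0.90 (0.71 to 1.09). Complex I, the NADH dehydrogenase, had 0.78 (0.65 to 0.90) and 0.58 (0.46 to 0.69) in Myh2 over Myh4 nuclei. Complexes II, III and V had 1.20, 1.08 and 1.02 in Ctrl and 0.84, 0.60 and 0.54 in cKO. The 7 Ndufaf genes, whose proteins help to assemble complex I, had the smallest ratios, 0.41 (0.09 to 0.72) in Ctrl and 0.05 (-0.24 to 0.33) in cKO.

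**Figure D2:**
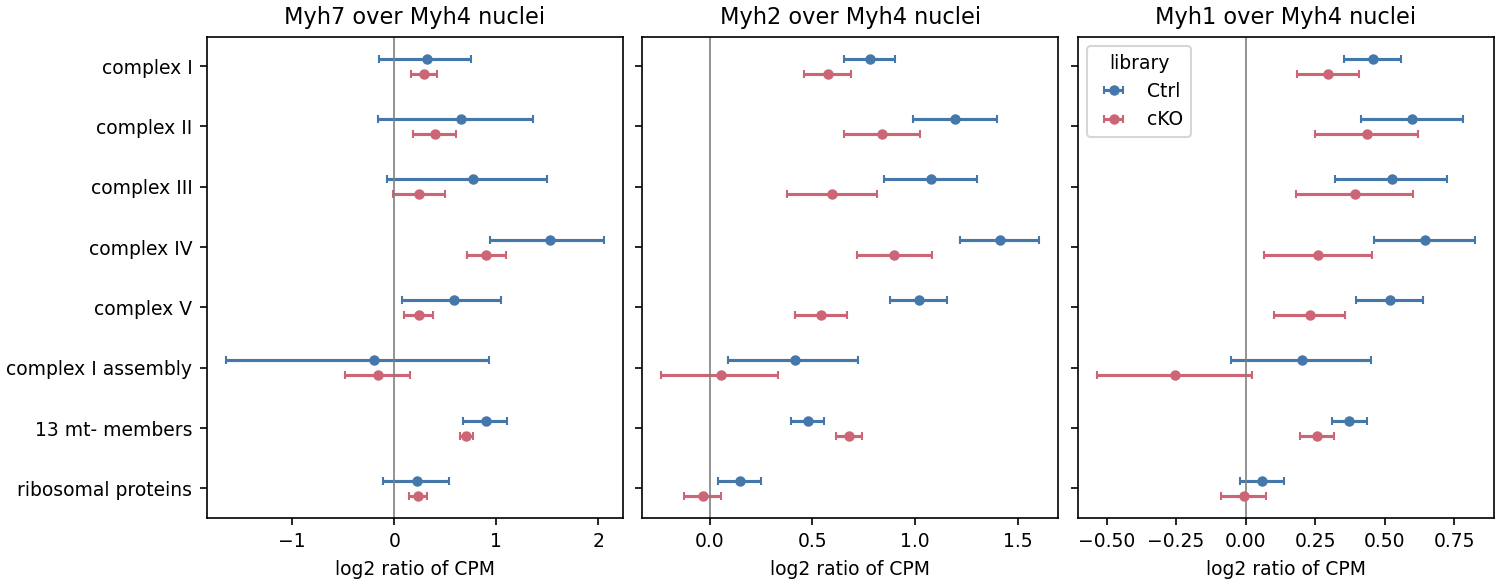
Log2 ratio of the summed CPM of each complex in Myh7, Myh2 or Myh1 nuclei over Myh4 nuclei of the same library (Ctrl blue, cKO red), with 95% exact conditional intervals; the x axes of the panels differ in range. In the Myh2 panel complex IV stands at 1.42 in Ctrl and 0.90 in cKO, and ribosomal protein genes at 0.15 and -0.03.

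Of 86 nuclear members with at least 10 UMIs over the Myh2 and Myh4 nuclei of Ctrl, 40 were at least 2-fold higher in Myh2 nuclei, against 13.5% of 10844 genes, and 1 was at least 2-fold lower, against 12.1%. The lower one was Ndufa2, with 27 UMIs. Their median log2 ratio was 0.95, against 0 over all genes. In cKO, 25 of 85 were at least 2-fold higher, against 10.1% of genes, and 2 at least 2-fold lower, Ndufa2 and Ndufb4, against 14.9%, with a median of 0.60 against -0.09. In Myh7 over Myh4 nuclei of cKO, 19 of 84 were at least 2-fold higher, against 11.8%, and 2 lower, Ndufb6 and Ndufb7, against 14.3%. In Myh1 over Myh4 nuclei the counts were 12 of 86 in Ctrl, against 8.69% of genes, and 7 of 85 in cKO, against 7.28%, so the share in cKO lay near that of all genes. At least 2-fold lower in Myh1 nuclei were 3 in Ctrl, Ndufs5, Uqcrfs1 and Cox8a, against 9.39% of genes, and 3 in cKO, Sdhd, Atp5s and Ndufaf6, against 10.3%.

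Among single nuclear members, the contrast of Myh7 over Myh4 nuclei in cKO was largest for Cox6a2. Cox6a2, the heart and muscle form of a regulatory complex IV subunit, stood at 8.36 CPM in the Myh4 nuclei of Ctrl and 12.5 CPM in those of cKO. In Myh2 nuclei it stood at 56.8 and 47.2 CPM, and in Myh7 nuclei at 74.1 CPM from 3 UMIs in Ctrl and 75.4 CPM in cKO. Its Myh7 over Myh4 log2 ratio in cKO, 2.59 (1.93 to 3.26), was the largest among the 49 nuclear members with at least 50 UMIs in these classes. It was followed by Cox6c, a small structural subunit, at 1.57 (0.82 to 2.29), Cox8b at 1.50 (0.99 to 1.99), Uqcr10, a small complex III subunit, at 1.36 (0.45 to 2.23), and Cox7c at 1.27 (0.52 to 1.97).

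At the other end stood Ndufaf6, a complex I assembly factor, at 71.3 CPM in Myh4 and 39.3 CPM in Myh7 nuclei of cKO, and thus a log2 ratio of -0.86 (-1.53 to -0.24). Ndufa12, an accessory complex I subunit, had -0.61 (-1.50 to 0.17), Atp5g2, which encodes a c subunit of the ATP synthase ring, -0.52 (-1.80 to 0.56), and Atp5f1 -0.26. Apart from that of Ndufaf6, these intervals included 0. In Ctrl the 19 Myh7 nuclei gave too few UMIs to rank genes.

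The Cox6a2 and Cox8b shares had intervals in Myh2 nuclei of Ctrl that did not overlap those in Myh4 nuclei, whereas in cKO they overlapped. Cox6a2 made up 32.1% (24.4 to 40.6) of the UMIs of Cox6a1 and Cox6a2 in Myh4 nuclei of Ctrl and 71.9% (53.3 to 86.3) in Myh2 nuclei. In cKO the shares were 40.9% (30.5 to 51.9) and 60.4% (46.0 to 73.5), with 67.6% (55.2 to 78.5) in Myh7 nuclei. Over all myonuclei the share was 39.6% (33.6 to 45.9) in Ctrl and 52.0% (46.6 to 57.4) in cKO. Cox8b, the muscle form of the smallest complex IV subunit, held 70.4% of its pair in Ctrl and 69.6% in cKO myonuclei. In Myh2 nuclei its share was 90.7% (77.9 to 97.4) in Ctrl, from 39 of 43 UMIs, and 62.0% (47.2 to 75.3) in cKO, from 31 of 50, the widest gap between libraries among the shares of this pair in the myosin classes. Cox7a1, the heart and muscle form of its pair, was a minority throughout, with 11.7% (7.61 to 16.8) in Ctrl and 10.2% (6.23 to 15.4) in cKO. Cox4i2, the lung form, and Cox6b2, the testis form, gave 0 of 31 and 0 of 127 UMIs of their pairs in Ctrl myonuclei.

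**Figure D3:**
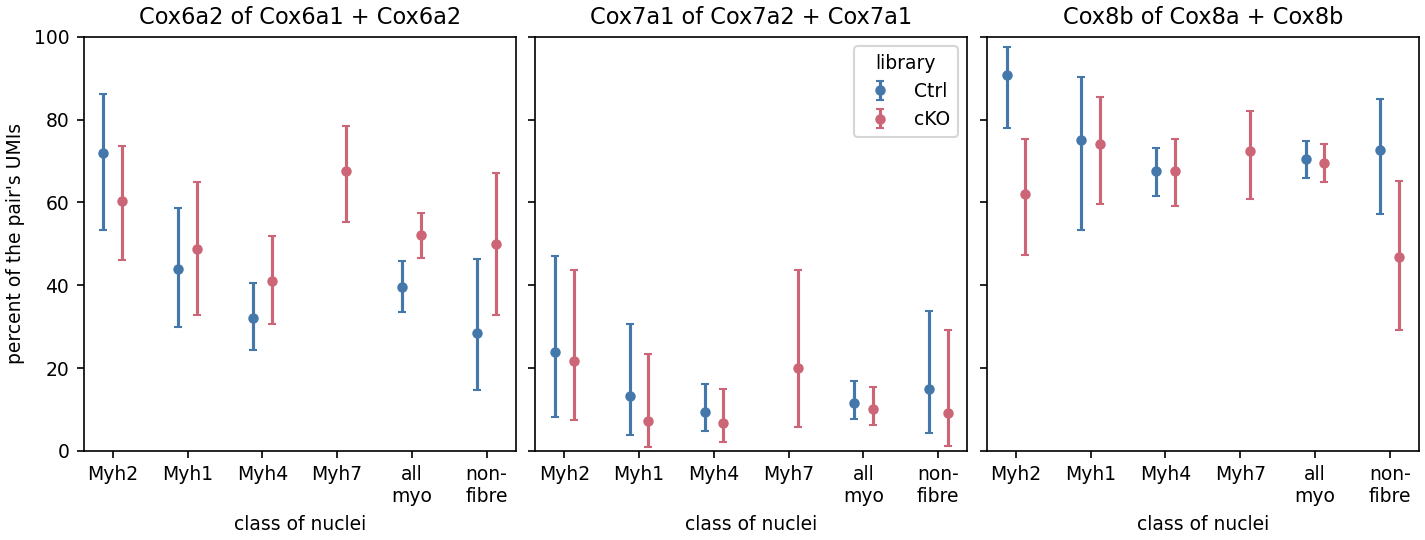
Share of the muscle isoform among the UMIs of its pair (percent, 0 to 100) by class of nuclei, for Ctrl (blue) and cKO (red), with 95% Clopper-Pearson intervals; pairs with under 10 UMIs are not drawn. Cox6a2 ran from 32.1% in Myh4 to 71.9% in Myh2 nuclei of Ctrl, Cox7a1 stayed low, and Cox8b was the major form in myonuclei.

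Muscle isoforms were also counted in non-fiber nuclei, where they are not known as the main form. Cox6a2 had 7.96 CPM there for Ctrl and 30.8 CPM for cKO, and Cox8b at 25.5 and 25.7 CPM, with Cox8b making up 72.7% and 46.9% of its pair. The Cox6a2 level of Myh4 nuclei, 8.36 and 12.5 CPM, was near or under that of non-fiber nuclei in both libraries, so its ratios and shares against Myh4 nuclei rest on a level that is not above theirs. The Cox8b level of Myh4 nuclei, 35.2 and 32.0 CPM, had intervals that overlapped those of non-fiber nuclei. Cox6a2 in Myh2 nuclei lay above non-fiber nuclei in Ctrl, at 36.0 to 85.2 CPM against 3.82 to 14.6 CPM, but in cKO the intervals overlapped, at 32.3 to 66.6 CPM against 18.2 to 48.6 CPM. In Myh7 nuclei of cKO, at 55.2 to 101 CPM, it lay above them. Myh4 itself stood at 1319 and 1416 CPM in non-fiber nuclei against 2840 and 4003 CPM in Myh4 nuclei, and Myh7 at 9.56 CPM (Ctrl) and 174 CPM (cKO). The summed nuclear members of non-fiber nuclei were 2046 CPM (1968 to 2127) for Ctrl and 2379 CPM (2255 to 2507) for cKO, with a log2 ratio of 0.22 (0.12 to 0.31). Of 79 rated members, 8 were at least 2-fold higher there in cKO, against 4.48% of 10374 genes, among them Cox6a2 and Cox8a, and 2 lower, Ndufb2 and Ndufb3, against 10.4%. The part of free RNA in these levels was not tested.

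The cKO over Ctrl ratio of the nuclear sum was above 0 over all myonuclei and in Myh4 nuclei, and below 0 in Myh2 and Myh1 nuclei. Over all myonuclei, the 88 nuclear members summed to 2634 CPM (2597 to 2670) for Ctrl and 2832 CPM (2792 to 2873) for cKO, with a log2 ratio of 0.10 (0.08 to 0.13). Within Myh2 nuclei the ratio was -0.28 (-0.37 to -0.19), and within Myh1 nuclei -0.15 (-0.23 to -0.07). Within Myh4 nuclei it was 0.08 (0.04 to 0.13), and within Myh7 nuclei -0.19 (-0.43 to 0.06). Nuclei without a main myosin had 0.18 (0.09 to 0.26), from 2451 and 2774 CPM, and mixed nuclei -0.15 (-0.26 to -0.05). The nuclei of a class were spread over the clusters in other proportions in Ctrl than in cKO. Cluster 2, led by type I markers, held 148 Ctrl and 882 cKO nuclei, among them 9.70% of the Ctrl and 27.3% of the cKO Myh2 nuclei, 6.67% and 20.8% of Myh1 nuclei, and 1.76% and 4.23% of Myh4 nuclei. It was the largest holder of mixed nuclei in cKO (37.6%) but not in Ctrl (10.9%), where cluster 4 held 39.8%. It also held 46.5% of the nuclei without a main myosin in cKO and 10.7% in Ctrl, where cluster 0 held the most (30.2%). Cluster 4 held most Myh2 nuclei (86.1% and 67.7%), cluster 1 most Myh1 nuclei (81.0% and 72.1%) and cluster 0 the largest share of Myh4 nuclei (49.5% and 53.6%), and the part of cluster 2 in the ratios within classes was not tested. With Malat1 and mt- genes left out of the total, the values were 0.20 over all myonuclei, -0.11 (-0.19 to -0.02) in Myh2, -0.035 (-0.11 to 0.04) in Myh1, 0.12 in Myh4 and 0.03 in Myh7 nuclei, where the sign turned. In Myh1 nuclei the interval then included 0. With each nucleus thinned to 500 UMIs before the myosin call, Myh4 nuclei had 0.024 (-0.06 to 0.10) and Myh1 nuclei -0.29 (-0.43 to -0.15).

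The shares of the fiber classes moved with the overall value. Myh7 nuclei made up 0.649% of Ctrl and 8.49% of cKO myonuclei, Myh2 nuclei 5.64% and 9.94%, and Myh4 nuclei 64.0% and 43.1%. The difference of 199 CPM between the libraries was split into 226 CPM from the class shares and -27.1 CPM from the levels within classes, averaged over both orders. At the Ctrl shares of classes, the cKO sum would be 2666 CPM, a log2 ratio of 0.02. With Malat1 and mt- genes left out of the total, an alternative chosen after seeing the data, the difference was 541 CPM, of which 322 CPM came from the class shares and 219 CPM from the levels within classes, and the log2 ratio at the Ctrl shares was 0.09. The sign of the part from levels within classes thus depended on the total.

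Of the 88 nuclear members, 3 were at least 2-fold higher in cKO over all myonuclei, against 5.09% of 12934 genes, and 0 at least 2-fold lower, against 6.68%. These were Cox6a2, Ndufa13 and Ndufb8, of which Ndufa13 and Ndufb8 are complex I subunits with 29 and 39 UMIs over both libraries. Ratios above 0 were seen in 57 members and below 0 in 31, with a median of 0.08 against -0.08 over all genes. By complex, 18 of 37 members of complex I, 4 of 4 of complex II, 8 of 9 of complex III, 13 of 14 of complex IV, 13 of 17 of complex V and 1 of 7 assembly factors lay above 0. The summed log2 ratio was 0.03 (-0.02 to 0.08) for complex I, 0.25 (0.17 to 0.34) for complex II, 0.08 (-0.01 to 0.18) for complex III, 0.24 (0.15 to 0.32) for complex IV, 0.13 (0.08 to 0.19) for complex V and -0.10 (-0.22 to 0.01) for the assembly factors. Complex IV was higher in cKO outside the fiber too, with 279 of 1255669 UMIs of non-fiber nuclei in Ctrl and 197 of 584794 in cKO.

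Cox6a2 was again the member with the largest ratio among the 83 with at least 50 UMIs, with 101 UMIs (13.2 CPM) in Ctrl and 179 UMIs (26.9 CPM) in cKO, and thus a log2 ratio of 1.03 (0.67 to 1.40). Within the classes its ratio was 0.58 (-0.10 to 1.25) in Myh4, -0.30 (-1.25 to 0.64) in Myh1 and -0.27 (-1.09 to 0.57) in Myh2 nuclei, whereas nuclei without a main myosin had 1.98 (0.69 to 3.53) from 6 and 31 UMIs and mixed nuclei 1.70 (-0.14 to 4.14) from 3 and 14. Ndufa11, an accessory complex I subunit, followed at 4.43 and 8.27 CPM, 0.90 (0.26 to 1.56). Sdhb, the iron-sulfur subunit of complex II, had 550 UMIs (71.7 CPM) in Ctrl and 723 UMIs (109 CPM) in cKO, 0.60 (0.44 to 0.76). Its ratio was 0.58 (0.32 to 0.84) in Myh4 nuclei, 0.16 (-0.26 to 0.58) in Myh1 and -0.11 (-0.52 to 0.31) in Myh2 nuclei. In nuclei without a main myosin it was 0.88 (0.40 to 1.39), and in mixed nuclei -0.12 (-0.67 to 0.44). Outside the fiber the ratio was also above 0, at 0.86 (0.29 to 1.43) in non-fiber nuclei, from 59 and 50 UMIs (47.0 and 85.5 CPM). The catalytic partner Sdha and the membrane anchor Sdhc had 0.13 (-0.02 to 0.28) and 0.11 (-0.03 to 0.25).

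Uqcrb, Cox4i1, Atp5k, Cox6b1, Ndufb5, Uqcr11 and Atp5j2 completed the 10 largest, with log2 ratios between 0.41 and 0.57. Among them Cox4i1, a core regulatory subunit of complex IV, had only 31 and 39 UMIs, and its interval ran from -0.18 to 1.27. Uqcr11 and Uqcrb also had few, 86 and 103 UMIs over both libraries. The 10 smallest ratios ran from -0.53 to -0.21, and 9 of them belonged to complex I subunits and 1 to the assembly factor Ndufaf1. Complex I subunits made up 37 of all 88 nuclear members. Ndufs6 was lowest at 7.17 and 4.96 CPM, -0.53 (-1.20 to 0.12), then Ndufb2 at -0.39 (-0.92 to 0.13), and both intervals included 0. Among the most counted members, Ndufs4, an accessory complex I subunit, had 207 and 194 CPM, -0.10 (-0.20 to 0.01), and Ndufs1, the largest iron-sulfur subunit, 110 and 132 CPM, 0.27 (0.13 to 0.40). Atp5c1, the gamma stalk subunit of the ATP synthase, had 130 and 112 CPM, -0.21 (-0.35 to -0.07), whereas the catalytic beta subunit Atp5b had 108 and 116 CPM, 0.10 (-0.04 to 0.24).

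The other well-counted members had ratios between -0.19 and 0.28. Ndufs3, a core complex I subunit, had a log2 ratio of 0.06, and the complex III core proteins Uqcrc1 and Uqcrc2 had -0.12 and 0.07. Uqcrh, the hinge protein of complex III, had 0.27 (0.04 to 0.50). In complex IV, Cox5a had 0.16, Cox7b 0.28 (0.04 to 0.52) and Cox8b 0.13, and Atp5l, a membrane subunit of the ATP synthase, had 0.24 (0.09 to 0.40). Of the assembly factors, Ndufaf4 had -0.19 (-0.37 to -0.01), Ndufaf6 0.07 and Ndufaf2 -0.07. The other complex I subunits among the 10 smallest were Ndufs5, Ndufs7, Ndufb11, Ndufa8, Ndufb7, Ndufb4 and Ndufb10.

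**Figure D4:**
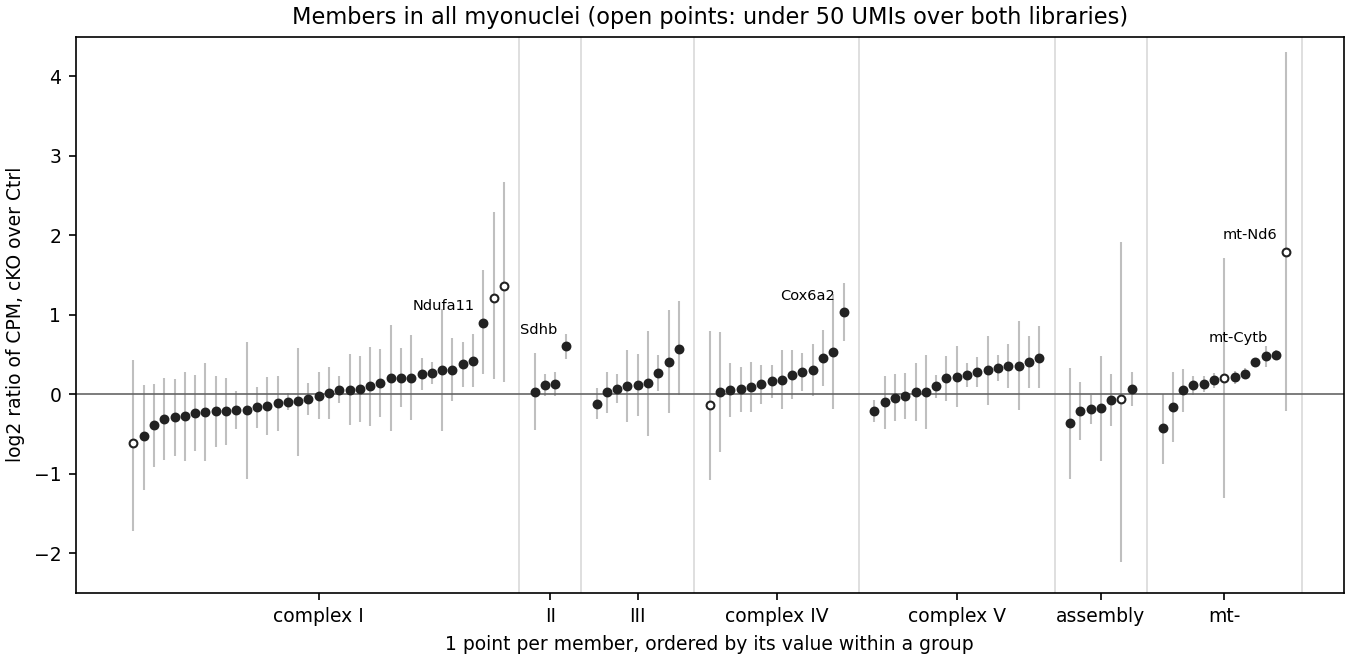
Log2 ratio of CPM in cKO over Ctrl, all myonuclei, for each of the 88 nuclear members by complex and the 13 mt- members, with 95% exact conditional intervals (gray); open points have under 50 UMIs over both libraries. Cox6a2 stands at 1.03 and Sdhb at 0.60, the complex I points spread around 0, and mt-Nd6 at 1.79 rests on 12 UMIs.

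Within Myh2 nuclei, 57 of 76 members lay below 0, with a median of -0.26 against -0.13 over all genes. At least 2-fold lower were 7, against 8.93% of 6711 genes, and at least 2-fold higher 3, against 7.2%, both near or under the share of all genes. The higher ones were Ndufa3, Ndufv3 and Cox8a, the last at a log2 ratio of 1.50 from 23 UMIs. Cox8b stood at 96.3 and 45.7 CPM, -1.08 (-1.80 to -0.36), and Atp5b at 188 and 113 CPM, -0.73 (-1.20 to -0.25). Atp5sl, named for its likeness to an ATP synthase gene, stood at 91.4 and 41.3 CPM, -1.15 (-1.91 to -0.40). These 3 were chosen after their values were seen. In Myh1 nuclei, 51 of 75 lay below 0, with a median of -0.17 against -0.09, and 5 were at least 2-fold lower, against 8.19% of genes, and 1 higher, against 6.35%. The lower ones were Ndufa12, Ndufb4, Ndufc1, Sdhd and Uqcr11 and the higher one Uqcrfs1, and these were mostly genes of few UMIs. In Myh4 nuclei, 50 of 87 lay above 0, with a median of 0.05 against -0.04. There 1 was at least 2-fold higher, Ndufa13, against 4.19% of genes, and 1 lower, Ndufs7, against 7.09%.

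Members of longer span tended to have more UMIs. Over the 88 nuclear members, span in GENCODE M21 and UMIs in myonuclei had a Spearman correlation of 0.53 across genes, which are not independent replicates. Ndufs4, which spans 100 kb of chromosome 13 (GRCm38, 114287795 to 114388258, minus strand), ranked 1 by UMIs with 2879, but 47 by UMIs per kb with 28.7. Cox8b, 1.50 kb on chromosome 7 (140898945 to 140900446, minus strand), ranked 22 by UMIs with 570 and 1 by UMIs per kb with 379, and Cox6a2, 0.953 kb on chromosome 7 (128205435 to 128206387, minus strand), ranked 2 with 294.

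Members split at their median span of 7.42 kb had overlapping cKO over Ctrl ratios in all myonuclei, 0.11 (0.06 to 0.17) for the 44 short and 0.10 (0.07 to 0.14) for the 44 long members. The contrast of Myh7 over Myh4 nuclei in cKO was larger for short members. In cKO, Myh7 over Myh4 nuclei gave 0.70 (0.57 to 0.83) for short and 0.18 (0.09 to 0.27) for long members, and in Ctrl 1.04 (0.62 to 1.42) and 0.41 (0.10 to 0.71), with overlapping intervals. In Myh2 over Myh4 nuclei of Ctrl the values were 1.18 (1.05 to 1.30) and 0.89 (0.80 to 0.97), whereas in cKO they overlapped, at 0.70 (0.58 to 0.82) and 0.57 (0.50 to 0.65). In Myh1 over Myh4 nuclei short and long members overlapped in both libraries, at 0.53 (0.41 to 0.64) and 0.49 (0.42 to 0.56) in Ctrl and 0.30 (0.18 to 0.42) and 0.25 (0.18 to 0.33) in cKO.

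Other genes of the pathway were read from lists. Of 18 regulators of mitochondrial genes with at least 10 UMIs, 7 lay above and 11 below 0 in cKO over all myonuclei, with a median of -0.04, and 0 passed 2-fold in either direction. Of 28 electron carrier and assembly genes, 10 lay above 0 and 18 below, with a median of -0.10, 1 at least 2-fold higher, Sdhaf1 with 3 and 7 UMIs, and 0 lower. Of 20 genes of carriers and the citrate cycle, 12 lay above 0 and 8 below, with a median of 0.10, 0 at least 2-fold higher and 1 lower, Slc25a5, an ADP/ATP carrier. Over all 12934 genes the median was -0.08, with 5473 above 0 and 7461 below. In Myh2 nuclei 15 of 19 carrier and citrate cycle genes lay below 0, with a median of -0.38, against 3948 of 6711 genes and a median of -0.13.

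Among the regulators, the nuclear receptor Esrrg stood at 405 CPM in Myh4 and 4412 CPM in Myh2 nuclei of Ctrl and at 602 and 3204 CPM in cKO. The coactivator Ppargc1a stood at 228 and 1138 CPM in Ctrl and at 234 and 635 CPM in cKO. The lipid-sensing receptor Ppara stood at 35.9 and 714 CPM in Ctrl and at 58.0 and 480 CPM in cKO. The Myh2 over Myh4 log2 ratio of each was smaller in cKO, 2.41 (2.32 to 2.50) against 3.45 (3.36 to 3.54) for Esrrg, 1.44 (1.27 to 1.62) against 2.32 (2.16 to 2.48) for Ppargc1a and 3.05 (2.78 to 3.33) against 4.31 (4.04 to 4.58) for Ppara. Nrip1, a corepressor of these receptors, was lower in Myh2 than in Myh4 nuclei, at 106 and 318 CPM in Ctrl and 89.9 and 217 CPM in cKO. Not every regulator was lower in Myh2 nuclei of cKO. The cKO over Ctrl log2 ratio there was 0.28 (-0.18 to 0.76) for Esrra and 0.03 (-0.31 to 0.38) for Ppargc1b. All regulators in this paragraph were named after their values were seen.

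The mt- members had another order of classes. Their summed level in Ctrl was 2443 CPM (2401 to 2485) in Myh4, 3164 CPM (3041 to 3291) in Myh1, 3400 CPM (3223 to 3584) in Myh2 and 4547 CPM (3913 to 5253) in Myh7 nuclei. In cKO it was 2707 CPM (2647 to 2768), 3236 CPM (3118 to 3357), 4335 CPM (4179 to 4494) and 4422 CPM (4257 to 4592). Myh7 nuclei were highest in Ctrl and were not separated from Myh2 nuclei in cKO, whereas for the nuclear members Myh2 nuclei were highest. This order changed with no limit of 10% mt- UMIs per barcode, a run in which doublets and clusters were also called anew. The log2 ratios over Myh4 nuclei were then 1.17 (Myh7) and 1.40 (Myh2) in Ctrl and 2.85 and 1.60 in cKO. Of the Ctrl barcodes over the limit, 0 had Myh7 as main myosin. The part of each step in these shifts was not tested. Non-fiber nuclei held far more, 18288 CPM (18052 to 18526) for Ctrl and 30004 CPM (29561 to 30451) for cKO, 7.49 and 11.1 times the level of Myh4 nuclei. Fibro-adipogenic progenitor-like nuclei had 15624 and 30299 CPM, and the endothelial-like cluster 22877 and 30545 CPM.

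The cKO over Ctrl ratio of the mt- sum was 0.32 (0.29 to 0.34) over all myonuclei and 0.71 (0.69 to 0.74) in non-fiber nuclei, where the Cre driver is not known to be active. By class it was 0.35 (0.26 to 0.44) in Myh2, 0.15 (0.11 to 0.19) in Myh4, 0.03 (-0.05 to 0.11) in Myh1 and -0.04 (-0.26 to 0.18) in Myh7 nuclei. It was 0.38 (0.31 to 0.46) in nuclei without a main myosin and -0.16 (-0.25 to -0.08) in mixed nuclei. With Malat1 and mt- genes left out of the total, it was 0.41 over all myonuclei, 0.53 in Myh2, 0.19 in Myh4, 0.15 in Myh1 and 0.18 in Myh7 nuclei, where the sign turned. Thinning before the myosin call gave 0.87 in Myh2 nuclei, and keeping doublets gave 0.27 in Myh4 and -0.12 in Myh1 nuclei. The difference of 687 CPM over all myonuclei was split into 378 CPM from the class shares and 309 CPM from levels within classes, and at the Ctrl class shares the log2 ratio was 0.15. In Myh2 nuclei the genomes had opposite signs, with nuclear members at -0.28 and mt- members at 0.35. With Malat1 and mt- genes left out, these were -0.11 and 0.53. The mt- values changed with no limit of 10% mt- UMIs per barcode, where doublets and clusters were also called anew. The ratio was then 1.70 over all myonuclei, 0.62 in Myh2 and 2.10 in Myh7 nuclei. Among barcodes with enough genes and UMIs, 30 in Ctrl and 80 in cKO lay above that limit. Few had a main myosin of these classes, with Myh2 in 4 and 5 and Myh7 in 0 and 12. Their pooled mt- share was 16.5% in Ctrl and 31.6% in cKO. The part of these barcodes in the values below the limit was not tested.

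The mt- load differed widely between nuclei of a class. The median mt- share per nucleus was 0.181% in Myh4 nuclei of Ctrl and 0.209% in those of cKO, with quartiles of 0.0967% to 0.326% and 0.100% to 0.394%. In Myh2 nuclei it was 0.246% and 0.348%, and in fibro-adipogenic progenitor-like nuclei 1.36% and 2.50%. The tenth of all myonuclei with most mt- UMIs held 40.4% of them in Ctrl and 39.3% in cKO, against 28.0% and 28.6% for the nuclear members. After each nucleus was thinned to 500 UMIs, 64.3% (62.5 to 66.0) of Ctrl and 70.5% (68.9 to 72.1) of cKO myonuclei had a mt- UMI, against 95.9% and 94.5% unthinned, and 94.5% and 97.7% of non-fiber nuclei.

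**Figure D5:**
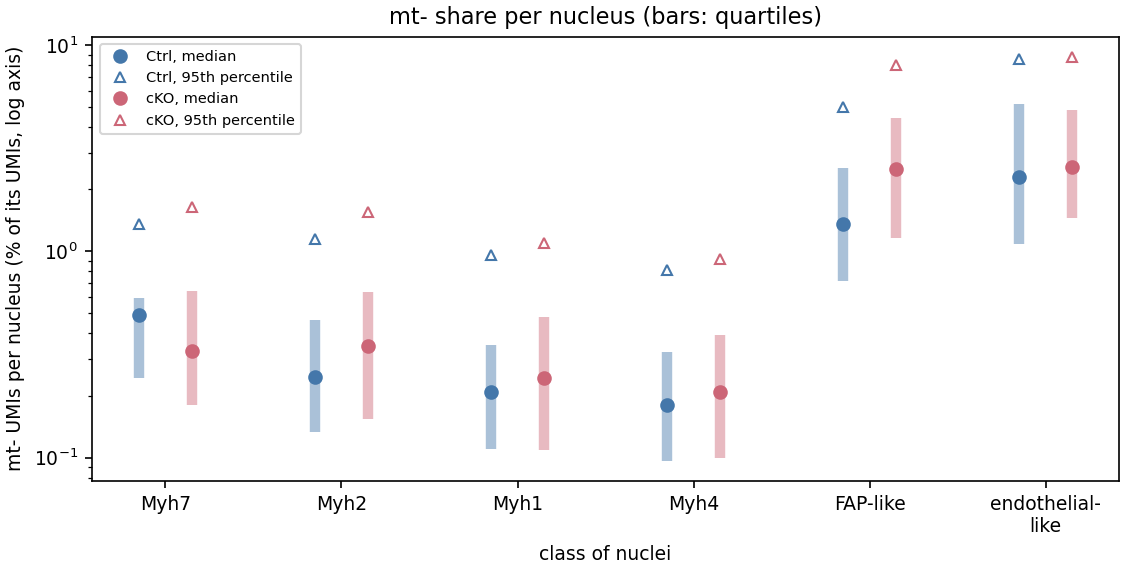
Share of mt- UMIs per nucleus (percent of its UMIs, log axis) by class, for Ctrl (blue) and cKO (red); points are medians, bars quartiles and triangles 95th percentiles. Medians ran from 0.181% in Myh4 nuclei of Ctrl to 2.57% in endothelial-like nuclei of cKO.

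The mt- genes had the same leading gene in myonuclei and in non-fiber nuclei. mt-Co3, a core complex IV subunit, was first with 27.2% (26.6 to 27.8) of mt- UMIs in Ctrl and 28.9% (28.4 to 29.5) in cKO myonuclei, and with 26.6% and 28.4% in non-fiber nuclei. mt-Cytb, the cytochrome b of complex III, was second in myonuclei with 17.3% (16.8 to 17.8) and 19.6% (19.1 to 20.1), and had 15.0% (14.6 to 15.5) and 16.2% (15.7 to 16.8) in non-fiber nuclei. mt-Atp6, the ATP synthase subunit of the proton channel, had 7.84% and 6.91% in myonuclei and 9.07% and 8.73% in non-fiber nuclei. mt-Cytb was thus a larger, and mt-Atp6 a smaller, share of mt- UMIs in myonuclei than in non-fiber nuclei of both libraries.

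In CPM of all myonuclei, mt-Cytb stood at 482 for Ctrl and 680 for cKO, with a log2 ratio of 0.50 (0.43 to 0.56). mt-Nd1, a membrane subunit of complex I, stood at 108 and 150 CPM, 0.48 (0.34 to 0.61), and mt-Co3 at 759 and 1005 CPM, 0.41 (0.35 to 0.46). mt-Co1, which holds the oxygen-reducing center, had 0.26 (0.19 to 0.33), mt-Co2 0.21 (0.13 to 0.30), mt-Nd4 0.18 (0.08 to 0.27), mt-Atp6 0.13 (0.03 to 0.23), mt-Nd2 0.11 (-0.01 to 0.23) and mt-Nd3 0.05 (-0.22 to 0.31). mt-Nd5 had -0.16 (-0.60 to 0.28) and mt-Nd4l -0.43 (-0.88 to 0.01). mt-Nd6, the only member on the other strand of mitochondrial DNA, had 3 and 9 UMIs, and mt-Atp8, which overlaps mt-Atp6, had 9 and 9.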

How the data were processed

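Per the labels and the study's methods, nuclei from pooled GP muscles were sequenced on the 10x Genomics platform, and the authors made the deposited count matrices (UMI counts per gene and barcode, not normalized) with Cell Ranger 3.1.0 on mm10. Here, barcodes with at least 100 genes, at least 500 UMIs and at most 10% mt- UMIs were kept, 3833 of 3863 in Ctrl and 3908 of 3994 in cKO. Scrublet's automatic threshold (scanpy 1.11.5) marked 0 barcodes, so the 8% with the highest score were removed, leaving 3526 and 3595. Nuclei were integrated with Seurat 5.3.0 and sctransform 0.4.2 in R 4.3.3 (3000 features without the members, 25 components, resolution 0.3) and clusters were named from marker lists. UMIs were summed per class and library and given as CPM, with Poisson, exact conditional (ratios) and Clopper-Pearson (shares) intervals at 95%, from scipy 1.17.1. A gene with at least 10 UMIs over both sides was rated, and was counted as higher or lower at 2-fold, with 3 UMIs as the floor for a count of 0. The functions for ratios and intervals were tested on simulated data. With 1 library per genotype there was no replicate check. Named genes were the mt- members, the isoform pairs, the 3 most counted members per complex, the 10 largest and 10 smallest ratios of cKO over Ctrl and the 5 largest and 5 smallest of Myh7 over Myh4 nuclei in cKO, with at least 50 UMIs. One gene that this rule names is not reported here. The members and lists were chosen with earlier results of these data known. Alternatives changed the doublet, UMI and mt- filters, the total, the averaging, the clustering and the myosin rule.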

Additional observations from a re-analysis of the deposited data

Results flagged for a closer look

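Barcodes that had enough genes and UMIs but over 10% mt- UMIs were left out of the comparisons above, except where no limit is named, and held 54.1% of the mt- UMIs of the cKO library, against 12.7% in Ctrl. There were 80 such barcodes in cKO and 30 in Ctrl, with a median mt- share of 15.4% and 14.8% and a highest share of 81.7% and 39.6%. Barcodes under the gene or UMI minimums are not among them, and over all deposited barcodes the highest share was 93.8% in cKO and 39.6% in Ctrl, with 40.6% and 87.3% of mt- UMIs in barcodes at or under the limit. Their summed nuclear members, with mt- genes left out of the total, stood at 5293 CPM in cKO and 6640 CPM in Ctrl, against 2812 and 2561 CPM in barcodes at or under the limit. Malat1 held 23.1% and 12.8% of their other UMIs, against 30.8% and 25.6%. Myh7 was the main myosin of 12 of the 80 cKO barcodes and 0 of the 30 Ctrl ones, against 305 of 3908 and 21 of 3833 at or under the limit. Of the 80, 50 had too few myosin UMIs for a class, as had 22 of the 30. Over all deposited barcodes the mt- share was 1.33% in cKO and 0.561% in Ctrl.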

How the results depend on the processing

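No paired analysis was possible because each genotype has 1 library, which also allows no library to be left out. Of 212 values under alternatives, 148 stayed within the counting interval (counts of genes within 1.5 times), 63 moved further and 1, the cKO mt- ratio of Myh1 over Myh4 nuclei, went from 0.26, with an interval above 0, to -0.037 with no mt- limit. Values whose own interval included 0 also changed sign, the nuclear ratio of cKO over Ctrl in Myh7 nuclei (0.030 without Malat1 and mt- genes), the mt- ratio in Myh7 nuclei (0.0033 with doublets kept, 0.18 without those genes, 2.10 with no limit) and the mt- ratio in Myh1 nuclei (-0.12 with doublets kept, -0.016 with the stricter myosin rule). The cause of these shifts was not tested.

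For the nuclear sum, leaving Malat1 and mt- genes out of the total gave cKO over Ctrl ratios of 0.20 in all myonuclei, -0.11 in Myh2 and -0.035 in Myh1 nuclei, and ratios over Myh4 nuclei in cKO of 0.45 (Myh7), 0.72 (Myh2) and 0.36 (Myh1). Thinning to 500 UMIs before the myosin call gave -0.29 in Myh1 and 0.024 in Myh4 nuclei, and 0.58 for Myh1 over Myh4 nuclei in Ctrl, where 80% of at least 5 UMIs gave 0.57. The mean over nuclei gave 0.35 for Myh1 over Myh4 nuclei in cKO. In the split by class shares, chosen after seeing the data, leaving out Malat1 and mt- genes moved the part from levels within classes from -27.1 to 219 CPM and the ratio at the Ctrl shares from 0.02 to 0.094.

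For the mt- sum of cKO over Ctrl, no mt- limit gave 1.70 in all myonuclei, 2.10 in Myh7, 0.62 in Myh2, 0.22 in Myh1 and 0.42 in Myh4 nuclei. Leaving Malat1 and mt- genes out of the total gave 0.41, 0.53 (Myh2) and 0.15 (Myh1). The mean over nuclei gave 0.38, 0.15 (Myh1) and 0.19 (Myh4). Use of all nuclei gave 0.18, -0.33 (Myh7) and 0.13 (Myh1), and at least 1000 UMIs gave 0.29 in all myonuclei. Thinning gave -0.30 (Myh7), 0.87 (Myh2) and 0.11 (Myh1), the stricter myosin rule -0.27 (Myh7), 0.46 (Myh2) and 0.083 (Myh4), and doublets kept -0.12 (Myh1) and 0.27 (Myh4), so the sign in Myh1 nuclei depended on the doublet filter.

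For the mt- sum over Myh4 nuclei, no mt- limit gave 1.17 (Myh7), 1.40 (Myh2) and 0.16 (Myh1) in Ctrl and 2.85 (Myh7) and 1.60 (Myh2) in cKO. All nuclei gave 0.092 (Myh2) and 0.10 (Myh1) in Ctrl and 0.46 (Myh7), 0.27 (Myh2) and 0.061 (Myh1) in cKO. Thinning gave 0.19 (Myh2) and 0.26 (Myh1) in Ctrl and 0.94 (Myh2) in cKO. The stricter myosin rule gave 1.14 (Myh7) in Ctrl and 0.78 (Myh7) and 0.86 (Myh2) in cKO. Doublets kept gave 0.52 (Myh1) in Ctrl and 0.63 (Myh7), 0.56 (Myh2) and 0.13 (Myh1) in cKO. Leaving Malat1 and mt- genes out of the total gave 0.82 (Myh7), 0.79 (Myh2) and 0.35 (Myh1) in cKO, and the mean over nuclei 0.28 (Myh1) in Ctrl.

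The count of nuclear members at least 2-fold higher in cKO was 1 with at least 50 UMIs per gene and 5 at 1.5-fold, where 1 was lower. Depth limits the Myh7 class of Ctrl, with 19 nuclei and 146 UMIs of nuclear members.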

Other observations

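Of 16 rated regulators of mitochondrial genes in Myh2 nuclei, 6 lay above 0 and 10 below in cKO over Ctrl, with a median of -0.24 against -0.13 over all genes, and of 17 in Myh4 nuclei, 9 lay above and 8 below, with a median of 0.0079 against -0.04. In Myh2 nuclei, Ppargc1a had a cKO over Ctrl log2 ratio of -0.84 (-1.03 to -0.65), Ppara -0.57 (-0.80 to -0.34) and Esrrg -0.46 (-0.55 to -0.37). In Myh4 nuclei, Esrrg had 0.57 (0.48 to 0.67), Ppara 0.69 (0.38 to 1.00) and Ppargc1a 0.04 (-0.10 to 0.17), and the corepressor Nrip1 had -0.55 (-0.69 to -0.42). Over all myonuclei Esrrg had 965 CPM (Ctrl) and 1660 CPM (cKO), and Nrip1 had 285 and 162 CPM. These genes were named after their values were seen, with 1 library per genotype.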
